A study of Mus musculus with 4 samples.

Results

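The comparison was between 2 kinds of transitory effector cells, a cluster of CD8+ T cells named by the authors, that had a T cell receptor (TCR) call: those of expanded clones and those whose TCR was found once. Clone size was the number of cells of any cluster with the same TCR α chain (TRA) and β chain (TRB) genes and CDR3 nucleotide sequences in the same library, and expanded clones (6 or more cells) were compared with single clones (1 cell). These 2 groups held 1234 cells, 866 of expanded and 368 of single clones, of 1444 transitory effector cells with a TCR call, 1891 transitory effector cells and 11754 cells in the series. The other 210 cells belonged to small clones of 2 to 5 cells. The clone size is a measured value, while the cluster name was given by the authors after clustering cells by gene expression, which is also what is tested here. The clone size comes from the TCR libraries and the gene counts from the expression libraries of the same cells, and the TCR V, D and J segment genes, which the clone size does use, were left out of all tests. At the threshold, clones of exactly 6 cells gave 9 clones with 28 transitory effector cells, and clones of exactly 5 cells, just outside it, gave 13 clones with 30.

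Transitory effector cells are a CD8+ T cell state between stem-like and terminally exhausted cells in lasting immune responses. The daughters of a T cell inherit its rearranged TCR sequence, so cells with the same TCR form a clone. A clone that has divided many times is called expanded, while a TCR seen in a single cell may come from a cell that has divided little or whose sisters were not captured. Lasting TCR stimulation is known to raise inhibitory receptors such as PD-1, TIGIT and LAG-3 and the transcription factor TOX, and to lower genes of naive and memory cells such as Il7r and Tcf7. The comparison here asked how transitory effector cells of expanded clones differed from transitory effector cells with a TCR found once.

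The cells were CD8+ T cells sorted from the BM of mice 4 weeks (day 28) after stem cell transplantation (SCT), captured in droplets with a 5′ method in which a UMI, a random tag on the cDNA, lets copies of the same RNA molecule be counted once. Donors and recipients were on a C57BL/6 background, WT or transgenic for CRBN, a modified cereblon that lets lenalidomide act in mouse cells, and per the methods recipients were female and had been given myeloma cells before SCT. The 4 treatments were isotype control with vehicle, anti-TIGIT with vehicle, isotype with lenalidomide, and anti-TIGIT with lenalidomide, with antibody from the day of SCT and lenalidomide or vehicle from day 14. Each treatment was 1 library of cells pooled from 5 mice. The deposited tables number the libraries 1 to 4 without a treatment, so no treatment is compared here. Expanded and single clones were compared within each library, and the test asked for a difference common to the 4 libraries. These are not replicates of 1 treatment. The main gene test takes its spread from what library and clone size leave unexplained over the summed groups, small clones included. It also shares information on spread across genes, so its p-values do not rest on the spread of 4 differences alone. Some expanded clonotypes were found in more than 1 library, so the libraries are not fully independent.

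The expanded arm held 251, 222, 85 and 308 cells from 23, 19, 13 and 31 clones in libraries 1 to 4, and the single arm 104, 106, 49 and 109 cells. Clones in the expanded arm had a median size of 14 cells and reached 170 cells. In each library 1 clone gave much of the arm, with 51, 64, 24 and 67 transitory effector cells, which is 20.3%, 28.8%, 28.2% and 21.8% of it. The CDR3 regions of these 4 clones, the stretch of each chain that contacts peptide, are shown because the arms are defined by them. Capitals mark the bases between the start shared with at least 20% of the other CDR3s of the same V gene and the end shared with at least 20% of those of the same J gene, the part that is most particular to the clone.
Library 1 TRA (TRAV13D-1, TRAJ21): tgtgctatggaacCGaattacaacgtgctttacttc
Library 1 TRB (TRBV3, TRBJ2-2): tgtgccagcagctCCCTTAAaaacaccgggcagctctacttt
Library 2 TRA (TRAV9-1, TRAJ45): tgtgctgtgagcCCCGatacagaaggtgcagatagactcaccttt
Library 2 TRB (TRBV17, TRBJ2-7): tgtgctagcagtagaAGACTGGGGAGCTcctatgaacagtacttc
Library 3 TRA (TRAV2, TRAJ18): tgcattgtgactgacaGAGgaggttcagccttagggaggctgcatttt
Library 3 TRB (TRBV16, TRBJ1-4): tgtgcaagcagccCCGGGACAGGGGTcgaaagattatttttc
Library 4 TRA (TRAV9-4, TRAJ50): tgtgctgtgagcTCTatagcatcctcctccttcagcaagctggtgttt
Library 4 TRB (TRBV16, TRBJ2-7): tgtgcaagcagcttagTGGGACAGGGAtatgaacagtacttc
The TRA locus spans chr14:52427928-54224206 and the TRB locus chr6:40891229-41558452 on GRCm38. The 4 clones used different TRA V and J genes, and those of libraries 3 and 4 shared the TRBV16 gene with different TRBJ genes. The clone of library 1 had 90 cells in all and 1 further cell in library 2. The clone of library 2 had 110 cells and 14 further cells in library 3, while the clones of libraries 3 and 4 were found in their own library only, with 66 and 133 cells. Over all 79 distinct expanded clonotypes, 21 were found in more than 1 library and 58 in 1.

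A clonotype needed the same call for every chain, so a cell with a missing or an extra chain counted as another clonotype. Within libraries, the 86 expanded clones held 70 distinct TRB sequences, and 4 had no TRA call. In library 4, 204 cells carried the TRB of the clone shown, while 133 carried its full clonotype. The same split could place a cell of an expanded clone in the single arm. Of the 368 single cells, 17 (4.62%) carried the TRB sequence of an expanded clone of their own library, and 10 of these 17 had a missing TRA or more than 1 chain of a kind. This count needed the whole TRB call to match. With TRB alone as clonotype, the single arm held 83, 87, 39 and 80 cells in libraries 1 to 4. By the full clonotype it held 104, 106, 49 and 109. The drop includes single cells without a TRB call and those that shared a TRB with any cell of their library. A TRA was missing in 6.12% to 15.1% of single cells and 0.797% to 11.3% of expanded cells of a library.

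Expanded clones with a transitory effector cell spread over most other clusters. Of the 2327 cells of these 86 clones, 37.2% were transitory effector cells (95% Clopper-Pearson interval, 35.2% to 39.2%), 25.4% cycling cells (23.7% to 27.3%) and 20.8% TIM-3+ Tex (19.1% to 22.5%). Cycling cells were present in 76 of the 86 clones, TIM-3+ Tex in 57, GzmA+ Tex and GzmB+ Teff in 44 each, and TIGIT+ Teff in 41. Naive cells (Tn) made up 0.473% of these cells and Tcm 0.129%. The libraries differed in this makeup. TIGIT+ Teff were 23.5% of the cells of these clones in library 3 (18.8% to 28.7%) and 1.21% to 9.32% in the other libraries, while TIM-3+ Tex were 3.97% in library 3 (2.07% to 6.84%) and 16.4% to 27.5% in the others. These intervals cover counting error only, and shares of clones that had to hold a transitory effector cell are a description.

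**Figure D1:**
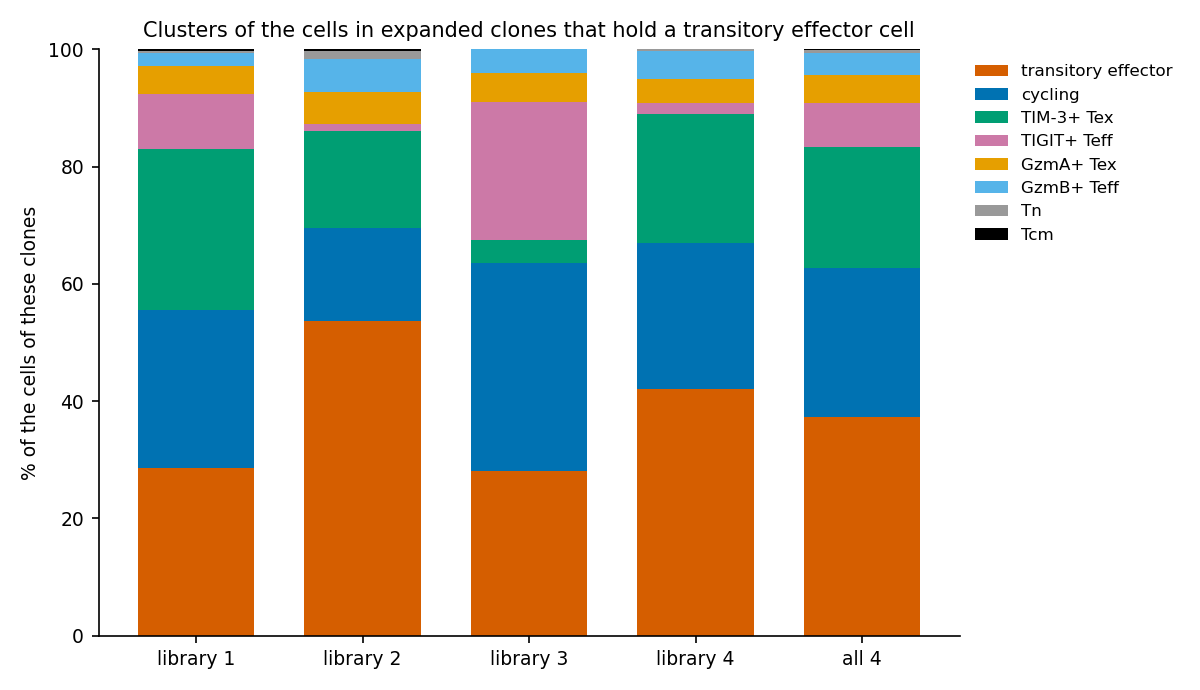
Share of the cells of expanded clones (y axis, % of cells) by cluster name (colours), for the 86 clones with a transitory effector cell, in each library and in all 4 (x axis). Transitory effector cells are the lowest segment, 28.5%, 53.6%, 28.1% and 42.1% in libraries 1 to 4, and Tn and Tcm cells are at or below 1.45% in each library.

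The cluster's markers were checked over its 1891 cells. Of 8 cluster names, transitory effector cells had the highest CPM (UMIs of a gene per 1000000 UMIs of the summed cells) of Cx3cr1 (60.5 CPM against 0.642 in Tn and 36.2 in TIM-3+ Tex), Klf2, Id3, Ier3 and Cd8b1. For Il7r and Pdcd1 they lay between Tn and TIM-3+ Tex, with 256 CPM of Pdcd1 against 7.71 and 509. Of these, Cx3cr1, Id3, Ier3 and Klf2 were on the list of transitory effector markers checked here, and Cd8b1 is the CD8 β chain. Klf2 was at 574 CPM against 555 in Tn. Klf2 and Id3 are also in the naive and memory gene list tested below, and Ier3 is in the immediate early list, so these are not particular to this state. The other transitory effector markers checked were not highest in this cluster. Among the 8 names, Tigit ranked 2, Tox and Zeb2 3, Tbx21, Id2 and Cxcr6 4, and Prdm1, Pdcd1, Gzma and Gzmb 5.

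The arms differed in depth and in the authors' cluster number. The summed UMIs of a library were 336447 to 806825 in the single arm and 492419 to 1881077 in the expanded arm. The median cell had 5438.5, 5930, 6499 and 6126 UMIs in single clones of libraries 1 to 4 and 4757, 4191.5, 5338 and 5237 in expanded clones, lower in expanded clones in 4 of 4 libraries (exact sign-flip permutation test, two-sided, p = 0.13, the smallest that 4 libraries allow). At 2500 UMIs a cell, the median number of detected genes was 1143 in single and 1147 in expanded cells. Cells also carry a Leiden cluster number that did not always match the cluster name. The number held by most transitory effector cells was carried by 76.9% of single and 68.7% of expanded cells. The number of the Tn cluster was carried by 10.1% of single (37 cells) and 0.462% of expanded cells (4 cells), and that of TIM-3+ Tex by 7.07% and 19.4%, with the same order in 4 of 4 libraries for both. A TCR was called in 76.4% of the cluster, and cells without a call had a median of 9427 UMIs against 5092 with one. Among all cells, 56 cell barcodes occurred in more than 1 library (112 cells), and 16 of these cells were in the comparison. No doublets were removed here. More than 1 TRB was called in 9.24% of single and 6.93% of expanded cells.

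Expanded clones had more RNA of 4 inhibitory receptors, of Tox and other exhaustion transcription factors, of chemokines and of CD3 chains, and less of many naive and memory genes. Of 6993 genes tested, 169 rose in expanded clones and 179 fell at a Benjamini-Hochberg adjusted p under 0.05 by edgeR's quasi-likelihood test, which is 2.42% and 2.56% of the genes tested, or 4.98% in either direction. The median log2 fold change of all genes tested was -0.01. Of the 348 genes called, 305 moved the same way in 4 of 4 libraries, as did 22.5% of all genes tested. Groups did not overlap, with every library's expanded level above every library's single level, for 106 genes that rose, and 105 that fell had every single level above. Over all genes tested, 3.88% were without overlap upward and 3.47% downward.

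The counts moved with the libraries and the tool. Without library 1, 54 genes rose and 55 fell, without library 4, 90 and 80, and without library 3, 136 and 113. With DESeq2 in place of edgeR 66 rose and 65 fell. Without clonotypes found in more than 1 library, a choice made after seeing the data that left 67 of the 251 expanded cells of library 1, 80 rose and 83 fell. Of the 348 genes, 107 were also called without library 1 and 126 also with DESeq2.

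**Figure D2:**
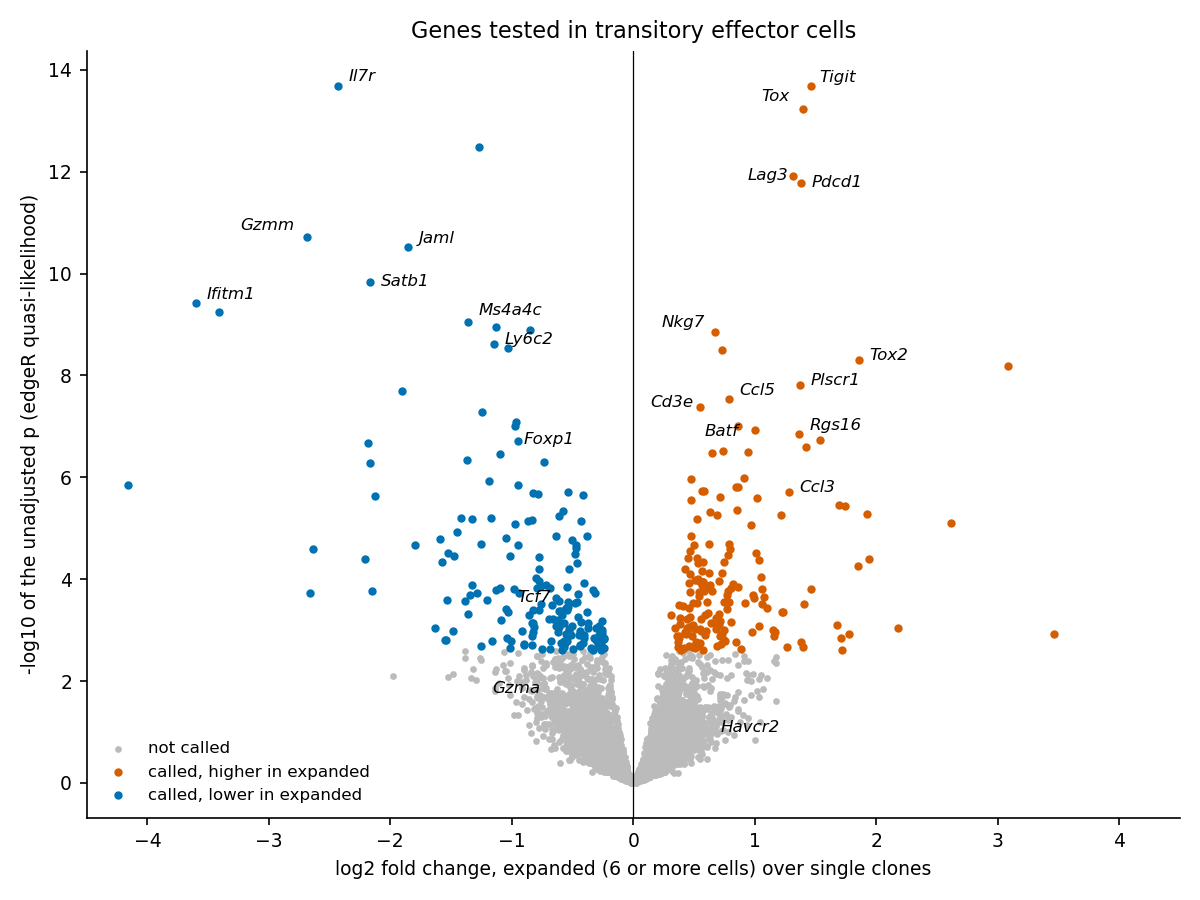
Each point is 1 of the genes tested in transitory effector cells, by its log2 fold change of expanded over single clones (x axis) and the -log10 of its unadjusted p (y axis). The 169 genes that rose are orange and the 179 that fell blue, and 1 gene with a log2 fold change beyond 4.5 lies outside the plot. Tigit, Tox, Lag3 and Pdcd1 have the smallest p of the genes that rose, and Il7r of those that fell.

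Of 14 inhibitory receptor genes, all tested, 4 rose (Tigit, Pdcd1, Lag3 and Ctla4), 0 fell and 10 did not pass, with a median log2 fold change of 0.55 over the list. Beside this and each list below stand the shares over all genes tested, 2.42% higher and 2.56% lower. The lists were chosen with earlier results of these data known, so their counts are a description. Tigit, which encodes the receptor that binds CD155 and that anti-TIGIT blocks, stood at 113, 149, 152 and 227 CPM in single clones of libraries 1 to 4, and 427, 396, 329 and 594 CPM in expanded clones. The lowest expanded library lay above the highest single library (log2 fold change 1.46 ± 0.11 (SE), edgeR adjusted p = 7.24e-11). Pdcd1, which encodes PD-1, stood at 86.3, 124, 131 and 183 CPM in single clones of libraries 1 to 4, and 326, 383, 274 and 361 CPM in expanded clones. These groups did not overlap either (log2 fold change 1.38 ± 0.13 (SE), edgeR adjusted p = 1.93e-09). Lag3, whose protein binds MHC class II, stood at 129, 158, 163 and 203 CPM in single clones of libraries 1 to 4, and 389, 480.3, 299 and 445 CPM in expanded clones. The groups did not overlap (log2 fold change 1.31 ± 0.12 (SE), edgeR adjusted p = 1.7e-09). Ctla4, which competes with CD28 for CD80 and CD86, was lower in counts, at 20.8, 21.6, 41.6 and 24.8 CPM in single clones of libraries 1 to 4, and 34.2, 97.0, 44.7 and 55.8 CPM in expanded clones, and its groups overlapped (log2 fold change 1.22 ± 0.23 (SE), edgeR adjusted p = 0.000573). Havcr2, which encodes TIM-3, was near the limit of these counts, at 4.79, 16.2, 17.8 and 16.1 CPM in single clones of libraries 1 to 4, and 19.3, 17.6, 60.9 and 11.2 CPM in expanded clones, and was not called (log2 fold change 0.64 ± 0.37 (SE), edgeR adjusted p = 0.428). Cd160 was also not called (log2 fold change 0.17 ± 0.14, SE). On GRCm38, Tigit chr16:43648867-43664146, Pdcd1 chr1:94038305-94052553, Lag3 chr6:124904361-124911705 and Il7r chr15:9505788-9530176 are protein-coding genes, and the 5′ tags do not tell exons apart.

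The rise in these receptors was also seen as a larger share of cells with at least 1 UMI when every cell was thinned to 2500 UMIs. For Pdcd1 the share was 20.4% (16.4% to 24.9%) in single clones, 32.4% (26.1% to 39.2%) in small clones and 47.2% (43.9% to 50.6%) in expanded clones (exact binomial 95% intervals over cells). Tn cells, which should lack PD-1, had 1.57% at 2500 UMIs, and 3.84% unthinned at a median depth of 7865 UMIs. TIM-3+ Tex had 74.3% at 2500 UMIs. Expanded transitory effector cells thus lay between single cells and TIM-3+ Tex. Before thinning the shares were 34.8%, 49.0% and 64.8%, at median depths of 5908, 5147 and 4830 UMIs. No cell fell below 2500 UMIs, so none was left out. For Tigit the thinned share was 26.6% in single and 62.2% in expanded cells (3.05% in Tn), and 41.6% and 79.1% before thinning. The Pdcd1 share by library was 15.4, 17.0, 22.4 and 27.5% in single and 51.8, 40.1, 44.7 and 49.4% in expanded cells, without overlap.

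**Figure D3:**
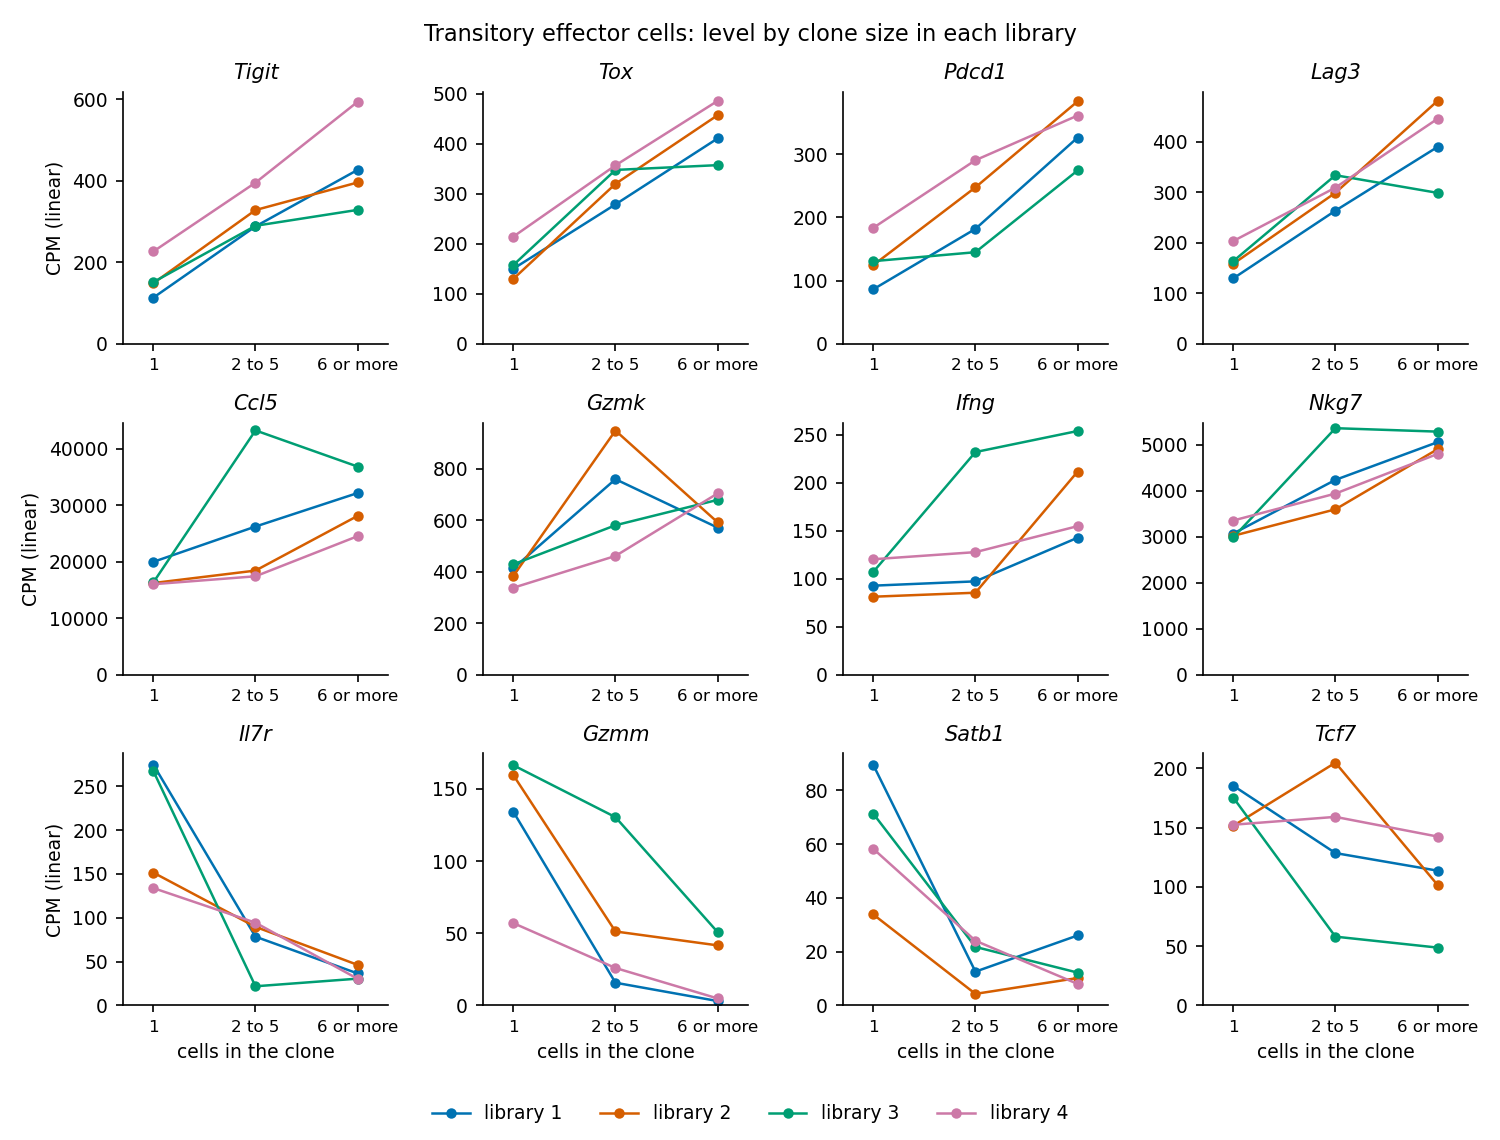
Level of 12 genes (y axes, CPM on a linear scale from 0) in transitory effector cells by clone size (x axes, cells in the clone) in each of the 4 libraries (coloured lines, 1 point per library and size group). Tigit, Tox and Pdcd1 step up and Il7r, Satb1 and Gzmm step down from single to expanded clones in each library, with small clones of 2 to 5 cells mostly between, while Tcf7 of small clones scatters from 58.0 to 205 CPM.

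Among 20 exhaustion and effector transcription factor genes, 9 rose, 2 fell and 9 did not pass, with a median log2 fold change of 0.32. Tox, a factor required for the exhausted state, stood at 150.2, 129.9, 158 and 214 CPM in single clones of libraries 1 to 4, and 411, 457, 357 and 486 CPM in expanded clones. The groups did not overlap (log2 fold change 1.40 ± 0.11 (SE), edgeR adjusted p = 1.36e-10). Tox2, a related factor, was at 9.59, 10.8, 5.94 and 19.8 CPM in single clones of libraries 1 to 4, and 40.9, 38.8, 40.6 and 61.7 CPM in expanded clones. It rose by more on the log2 scale from a low level (log2 fold change 1.86 ± 0.24 (SE), edgeR adjusted p = 1.82e-06). Batf, an AP-1 partner induced by TCR signals, also rose without overlap (log2 fold change 1.0 ± 0.15 (SE), edgeR adjusted p = 2.79e-05), while Nr4a2, a nuclear receptor of the same response, rose in 3 of 4 libraries (log2 fold change 0.78 ± 0.16 (SE), edgeR adjusted p = 0.00232). The other 5 that rose were Bhlhe40, Nfatc1, Eomes, Maf and Prdm1. Tbx21 (T-bet; log2 fold change -0.61 ± 0.15, edgeR adjusted p = 0.011) and Zeb2 (-0.82 ± 0.21, adjusted p = 0.0143), which work together in effector cells, fell. Id2 was not called (-0.08 ± 0.10).

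Of 20 genes of naive and memory cells, 10 fell, 1 rose and 9 did not pass, with a median log2 fold change of -0.49. Il7r, the IL-7 receptor chain that naive and memory cells need to survive, stood at 275, 152, 268 and 134 CPM in single clones of libraries 1 to 4, and 36.4, 46.2, 30.5 and 30.3 CPM in expanded clones. Each single library lay above each expanded library (log2 fold change -2.43 ± 0.19 (SE), edgeR adjusted p = 7.24e-11). Satb1, a chromatin organizer of naive cells, was at 89.5, 33.8, 71.3 and 58.3 CPM in single clones of libraries 1 to 4, and 26.0, 10.2, 12.2 and 7.97 CPM in expanded clones. It fell without overlap (log2 fold change -2.16 ± 0.24 (SE), edgeR adjusted p = 1.15e-07). Ly6c2, a surface antigen of memory and effector CD8+ T cells, fell in 4 of 4 libraries (log2 fold change -1.14 ± 0.14 (SE), edgeR adjusted p = 1.07e-06). Foxp1, a factor that keeps naive cells quiescent, fell without overlap (log2 fold change -0.97 ± 0.14 (SE), edgeR adjusted p = 2.43e-05). Tcf7, which encodes TCF-1 of stem-like cells, stood at 185, 152, 175 and 152 CPM in single clones of libraries 1 to 4, and 114, 102, 48.7 and 142 CPM in expanded clones. Its fall was smaller than that of Il7r on the log2 scale (log2 fold change -0.61 ± 0.16 (SE), edgeR adjusted p = 0.0146), and it was not called without library 1 (-0.59), without library 3 (-0.43), without the library block (-0.62), with expanded clones from 2 cells (-0.53), without shared clonotypes (-0.54) or with at most 3 cells per clone (-0.30). The 1 gene of the list that rose was Cd28, a costimulatory receptor (log2 fold change 0.45 ± 0.12, edgeR adjusted p = 0.0193). Klf2 was not called (0.03 ± 0.10). The single arm held 37 cells with the Leiden number of Tn and the expanded arm 4. With the matching Leiden number only, Il7r still fell (-2.11, adjusted p = 1.23e-10), while Tcf7 gave -0.73 (adjusted p = 0.00301).

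The share of cells with an Il7r UMI at 2500 UMIs was 26.1% (21.7% to 30.9%) in single, 11% (7.07% to 16%) in small and 4.97% (3.62% to 6.63%) in expanded clones. TIM-3+ Tex, in which Il7r is known to be low, had 0.522% at 2500 UMIs (1.04% unthinned at a median depth of 5664 UMIs), and Tn cells 52.0% at 2500 UMIs. Unthinned shares were 39.4%, 14.8% and 7.62%. Ccr7, a lymph node homing receptor, had 6.25% in single and 0.808% in expanded cells, against 37.5% in Tn and 0.174% in TIM-3+ Tex, and 14.4% and 2.42% in the 2 arms before thinning. Most single transitory effector cells had no UMI of either gene at this depth. Many Tn cells also lacked them, with 52.0% for Il7r and 37.5% for Ccr7, so absence here does not show that a cell was not naive-like. The share of naive-like cells in the single arm was not tested.

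The 10 genes of largest rise among those called at 50 CPM or more in the higher arm with 1 direction in all libraries also held Penk (proenkephalin), Plscr1 (phospholipid scramblase), Rgs16 (a regulator of G protein signalling), Ccl3 and Syt11. Plscr1 stood at 35.2, 21.6, 23.8 and 26.0 CPM in single clones of libraries 1 to 4, and 66.9, 70.2, 63.0 and 76.6 CPM in expanded clones (log2 fold change 1.38 ± 0.18 (SE), edgeR adjusted p = 5.16e-06). Rgs16 rose in each library (log2 fold change 1.37 ± 0.21 (SE), edgeR adjusted p = 3.24e-05). Penk was at 32.0, 1.35, 0 and 24.8 CPM in single clones of libraries 1 to 4, and 75.8, 3.69, 16.2 and 71.2 CPM in expanded clones, with few counts in libraries 2 and 3 (log2 fold change 1.46 ± 0.34 (SE), edgeR adjusted p = 0.00731). The genes of largest fall by the same rule included Ifitm1, Gzmm, Il7r, Satb1, Jaml, Dapl1, Nsg2, Cmah and Ms4a4c. Ifitm1, an interferon-induced membrane protein, stood at 145, 85.2, 285 and 95.4 CPM in single clones of libraries 1 to 4, and 19.3, 22.2, 0 and 0 CPM in expanded clones. It was at 0 in 2 expanded libraries, so the size of the fitted log2 fold change of -3.60 depends on the prior count (edgeR adjusted p = 2.61e-07). Jaml, an adhesion molecule, stood at 112, 67.6, 65.4 and 71.9 CPM in single clones of libraries 1 to 4, and 21.5, 14.8, 36.6 and 23.4 CPM in expanded clones, without overlap (log2 fold change -1.85 ± 0.19 (SE), edgeR adjusted p = 2.65e-08). Nsg2, Dapl1, Cmah and Ms4a4c also fell without overlap, by log2 -1.42, -1.48, -1.37 and -1.36. Prss2, a trypsinogen gene that lies inside the TRB locus and was named after its values were seen, had 43.1, 10.8, 0 and 6.20 CPM in single and 594, 0, 0 and 13.8 CPM in expanded clones, nearly all of its expanded counts from library 1.

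Cytotoxic granule genes moved in both directions. Of 13 tested of 14 genes, 3 rose, 1 fell and 9 did not pass (median log2 fold change 0.23). Nkg7, a granule membrane protein, stood at 3069.9, 3021, 2984 and 3354 CPM in single clones of libraries 1 to 4, and 5059, 4906, 5288 and 4803 CPM in expanded clones. It rose without overlap (log2 fold change 0.68 ± 0.08 (SE), edgeR adjusted p = 6.41e-07). Gzmk (granzyme K) stood at 412, 383, 428 and 337 CPM in single clones of libraries 1 to 4, and 571, 591, 678 and 703 CPM in expanded clones and rose (log2 fold change 0.72 ± 0.13 (SE), edgeR adjusted p = 0.000294). Prf1 (perforin) rose in 4 of 4 libraries, with overlap (log2 fold change 0.63 ± 0.15 (SE), edgeR adjusted p = 0.00671). Gzmm (granzyme M) fell, from 134, 159.6, 166 and 57.0 CPM in single to 2.97, 41.6, 50.8 and 4.78 CPM in expanded clones (log2 fold change -2.69 ± 0.27 (SE), edgeR adjusted p = 1.89e-08). Gzma (granzyme A) split by library, at 1076, 683, 654 and 689 CPM in single clones of libraries 1 to 4, and 1309, 162, 759.5 and 196 CPM in expanded clones. It was higher in expanded clones of libraries 1 and 3 and lower in libraries 2 and 4 (log2 fold change -0.68 ± 0.27 (SE), edgeR adjusted p = 0.174). Gzmb (granzyme B), at 326, 380.2, 276 and 341 CPM in single clones of libraries 1 to 4, and 612, 314, 904 and 292 CPM in expanded clones, split the same way (log2 fold change 0.45 ± 0.17 (SE), edgeR adjusted p = 0.15). Srgn, the proteoglycan that packs granules, was not called (0.14 ± 0.09).

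Chemokine and cytokine genes rose where called. Of 9 tested of 14 genes, 4 rose (Ccl5, Ccl3, Ccl4 and Ifng), 0 fell and 5 did not pass, with a median log2 fold change of 0.25. Ccl5, a chemokine stored by effector cells, stood at 19968, 16219, 16318 and 16012 CPM in single clones of libraries 1 to 4, and 32162, 28114, 36845 and 24519 CPM in expanded clones. The groups did not overlap (log2 fold change 0.79 ± 0.11 (SE), edgeR adjusted p = 8.71e-06). Ifng, which encodes IFN-γ, was at 92.7, 81.2, 107 and 120.2 CPM in single clones of libraries 1 to 4, and 143, 212, 254 and 155 CPM in expanded clones, also without overlap (log2 fold change 0.84 ± 0.14 (SE), edgeR adjusted p = 0.000224). Ccl3 and Ccl4, inflammatory chemokines, rose in each library, but the single arm ranged widely, from 63.9 to 505 CPM for Ccl3 (log2 fold change 1.28 ± 0.22 (SE), edgeR adjusted p = 0.000259) and from 229 to 1132 CPM for Ccl4 (log2 fold change 0.97 ± 0.19 (SE), edgeR adjusted p = 0.000772). Ltb (lymphotoxin β) was not called (-0.10 ± 0.09).

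Of 14 tested of 16 homing, chemokine receptor and integrin genes, 3 rose, 2 fell and 9 did not pass (median -0.04). Itga4, the α4 integrin, rose without overlap (log2 fold change 0.37 ± 0.09 (SE), edgeR adjusted p = 0.0119). Cxcr6, a receptor of tissue-resident cells, was at 233, 225, 196 and 208 CPM in single clones of libraries 1 to 4, and 403, 246, 485 and 208 CPM in expanded clones. The difference was largest in libraries 1 and 3 and near 0 in library 4 (log2 fold change 0.49 ± 0.13 (SE), edgeR adjusted p = 0.0237), and it was called under 9 of 19 alternatives. Cx3cr1 rose by log2 0.53 ± 0.16 (adjusted p = 0.0445). Ccr2, a receptor for CCL2, fell (log2 fold change -1.10 ± 0.17 (SE), edgeR adjusted p = 6.36e-05), as did Itga1, the collagen-binding integrin of resident cells, from low counts (log2 fold change -2.21 ± 0.47 (SE), edgeR adjusted p = 0.00258). Selplg was not called (-0.05 ± 0.08). Of 10 tested of 16 NK receptor and adaptor genes, 1 rose and 3 fell (median -0.51). Cd7 rose, mainly in libraries 1 and 3, at 575, 377, 547 and 594 CPM in single clones of libraries 1 to 4, and 1404, 409, 1826 and 808 CPM in expanded clones (log2 fold change 0.87 ± 0.15 (SE), edgeR adjusted p = 0.000225). Klrc1, which encodes NKG2A, fell in each library (log2 fold change -0.78 ± 0.14 (SE), edgeR adjusted p = 0.000268). Fcer1g and Tyrobp, adaptors that carry signals of innate receptors, also fell (log2 fold change -1.53 ± 0.37, adjusted p = 0.0104, and -2.15 ± 0.51, adjusted p = 0.00777). Fcer1g stood at 12.8, 43.3, 29.7 and 21.1 CPM in single clones of libraries 1 to 4, and 12.6, 12.9, 10.2 and 2.66 CPM in expanded clones. Tyrobp was near the limit of these counts, at 17.6, 20.3, 5.94 and 12.4 CPM in single clones of libraries 1 to 4. Its expanded levels were 3.71, 3.69, 6.09 and 1.59 CPM, and it was called under 8 of the 9 alternatives that tested it. Klrd1, which encodes the CD94 partner of NKG2A, was not called (0.06 ± 0.11).

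Of 18 TCR signalling genes, 6 rose (Cd3e, Cd8a, Cd3g, Fyn, Dusp2 and Zap70), 1 fell (Cd6) and 11 did not pass, with a median log2 fold change of 0.24. Cd3e, a CD3 chain, stood at 1304, 1177, 1192 and 1352 CPM in single clones of libraries 1 to 4, and 1899.7, 1779, 1897 and 1832 CPM in expanded clones, without overlap (log2 fold change 0.55 ± 0.08 (SE), edgeR adjusted p = 1.23e-05). Cd8a, at 601, 482, 505 and 647 CPM in single clones of libraries 1 to 4, and 958, 686, 973 and 815 CPM in expanded clones, also rose without overlap (log2 fold change 0.58 ± 0.10 (SE), edgeR adjusted p = 0.000257). The authors had kept cells by expression of Cd3e or Cd3g and of Cd8a, so both arms had passed a filter on these genes. Cd3d was not called (0.22 ± 0.08, adjusted p = 0.0888). Of 10 tested of 11 costimulatory receptor genes, Cd2, an adhesion receptor, rose (log2 fold change 0.43 ± 0.09 (SE), edgeR adjusted p = 0.00371), Tnfsf8, the CD30 ligand, fell (log2 fold change -1.53 ± 0.32 (SE), edgeR adjusted p = 0.00213) and 8 did not pass, among them Cd48 (0.18 ± 0.11) and Cd226, the activating receptor that competes with TIGIT (0.05 ± 0.16). Cd226 stood at 119.9, 70.4, 110.0 and 76.8 CPM in single clones of libraries 1 to 4, and 109, 62.8, 211 and 65.4 CPM in expanded clones, higher in expanded clones in library 3 only.

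Of 17 tested of 20 immediate early genes, Ier3 (log2 fold change 1.42 ± 0.22 (SE), edgeR adjusted p = 5.17e-05) and Dusp1 (log2 fold change 0.58 ± 0.14 (SE), edgeR adjusted p = 0.00771) rose, Myc fell (log2 fold change -0.58 ± 0.15 (SE), edgeR adjusted p = 0.017, but near 0 after thinning) and 14 did not pass, Junb among them (-0.11 ± 0.10). Of 17 tested of 22 cell cycle genes, Mcm6, a replication helicase subunit, rose (log2 fold change 0.46 ± 0.14 (SE), edgeR adjusted p = 0.044) but was called under only 4 of 19 alternatives, and 16 did not pass, Hmgb2 among them (0.33 ± 0.13). In the interferon list, Ifi27l2a rose (log2 fold change 0.51 ± 0.12 (SE), edgeR adjusted p = 0.00565), Ly6e fell (log2 fold change -0.54 ± 0.09 (SE), edgeR adjusted p = 0.000259) and 13 of 15 did not pass. Among cytokine receptor and feedback genes, both chains of the IL-18 receptor, Il18r1 (log2 fold change -0.95 ± 0.15 (SE), edgeR adjusted p = 4.25e-05) and Il18rap (log2 fold change -0.95 ± 0.16 (SE), edgeR adjusted p = 0.000215), fell, and 12 of 14 did not pass, Il2rg among them (-0.17 ± 0.10).

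Lenalidomide acts through cereblon on Ikaros family factors. None of Ikzf1, Ikzf2, Ikzf3 and Crbn was called between expanded and single clones. The log2 fold changes were 0.12 ± 0.11 (SE) for Ikzf1, -0.25 ± 0.21 for Ikzf2, 0.29 ± 0.10 for Ikzf3 and 0.22 ± 0.18 for Crbn, with edgeR adjusted p of 0.677, 0.636, 0.104 and 0.623. The drug lowers the proteins, which RNA does not measure, and which libraries had lenalidomide is not given here.

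Markers of other cells were low in both arms. The summed level of 14 macrophage markers was 146 to 183 CPM over libraries in single and 156 to 180.2 CPM in expanded clones, most of it Ctss and Cd68, which T cells also express, and 0 of the 3 tested (Ctss and 2 others) were called. Csf1r was at 0 in single and Adgre1 at 0 in expanded clones. The 9 neutrophil markers summed to 1.35 to 35.7 and 3.71 to 6.09 CPM, with 6 and 4 of them at 0. The 12 B and plasma cell markers summed to 108 to 155 and 46.7 to 153 CPM, with Cd79a and Ms4a1 at 0 in both arms. Ighm, the IgM heavy chain, fell (log2 fold change -0.94 ± 0.22 (SE), edgeR adjusted p = 0.00808), while Igkc was not called (0.55 ± 0.24). The 9 CD4, γδ and erythroid markers in the table summed to 1.598 to 41.6 and 4.46 to 12.2 CPM. The part of such RNA in the other results was not tested.

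Levels were also summed by finer classes of clone size. Pooled over libraries, Pdcd1 was at 135, 238, 288, 335 and 462 CPM in clones of 1, 2 to 5, 6 to 20, 21 to 100 and over 100 cells. Tigit over the same sizes was at 165, 343, 422, 458 and 596 CPM. Tox over the same sizes was at 166, 329, 392, 413 and 606 CPM. Il7r over the same sizes was at 192, 81.2, 72.5, 19.0 and 26.1 CPM. The class of over 100 cells is 3 clones, 1 each of libraries 1, 2 and 4, and these pooled values have no test. The order did not hold clone by clone within libraries. In library 1, Pdcd1 was at 382 CPM in the clone of 170 cells, 551 in a clone of 68 with other TRA and TRB genes, and 744 in a clone of 58. The clone of 58 shared its TRA genes and a TRB gene call with the clone of 170 and had a further TRB, so they may be the same clone. In library 4, Tigit was at 677 CPM in the clone of 133 cells and 906 in a clone of 42. The clone of 42 had other TRA genes and more than 1 TRB call, 1 of them with the TRB genes of the clone of 133. Whether these share a TRB sequence is not given here. Between small clones (2 to 5 cells) and single clones, 18 genes rose and 20 fell (0.257% and 0.286% of those tested), or 19 and 7 with DESeq2. This comparison shares the single arm with that of expanded clones. Tigit gave log2 1.01 ± 0.13 in small clones (adjusted p = 5.38e-05), Tox 0.97 ± 0.13 (6.69e-05), Pdcd1 0.77 ± 0.15 (0.00741) and Il7r -1.25 ± 0.22 (0.00151). Without library 1, 4 genes were called between small and single clones.

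Expanded clones differed among themselves. A level was computed for each of the 26 clones with at least 10 transitory effector cells, which held 49887 to 422697 UMIs. Some of these share TRA or TRB gene calls with another clone of their library and differ by a missing or extra chain. They may be parts of the same clone, so counts out of 26 can include a clone more than once. Pdcd1 ranged from 35.4 to 763 CPM (median 356) and was above the single arm of the same library in 23 of 26 clones. Tigit was above it in 24 of 26 and Tox in 25 of 26, while Il7r and Gzmm were below it in 26 of 26. No Il7r UMI was found in 11 of these clones and no Gzmm UMI in 14. In library 2, 3 of the 6 clones, picked here after their values were seen, had less Pdcd1 than the single arm. The clone with TRBV10 and TRBJ1-5 (24 transitory effector cells) had 35.4 CPM of Pdcd1 and 70.7 of Il7r, and the clone with TRBV2 and TRBJ1-3 (17 cells) had 100.01 and 100.01. Another clone, of 12 cells with more than 1 TRB, had 80.2 and 100.23. The library 2 clone with the most transitory effector cells, with TRBV17, had 458 CPM of Pdcd1 and 3.18 of Il7r. Gzmm was 100.01 to 120.3 CPM in these 3 clones and 9.55 CPM in the TRBV17 clone.

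Gzma varied most. Of the 26 clones, 23 had less Gzma than the single arm of their library, with a median of 71.3 CPM. In library 1, a clone of 18 cells (11 in the cluster, TRBV5 and TRBJ2-5) had 8867 CPM and a clone of 31 cells (25 in the cluster, TRBV30 and TRBJ2-7) 5439 CPM. The same 2 clones had the highest Gzmb, 3283 and 1587 CPM, and the clone of that library with the most transitory effector cells (51 of 90) had 133 CPM of Gzma and 504 of Gzmb. With at most 3 cells per clone, the log2 fold change of Gzma was 0.09 in place of -0.68. Ccl5 ranged from 4001 to 63750.1 CPM and was above the single arm in 22 of 26 clones, and Gzmk in 23 of 26. These clones were chosen by cell number, and the values are a description without a test.

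**Figure D4:**
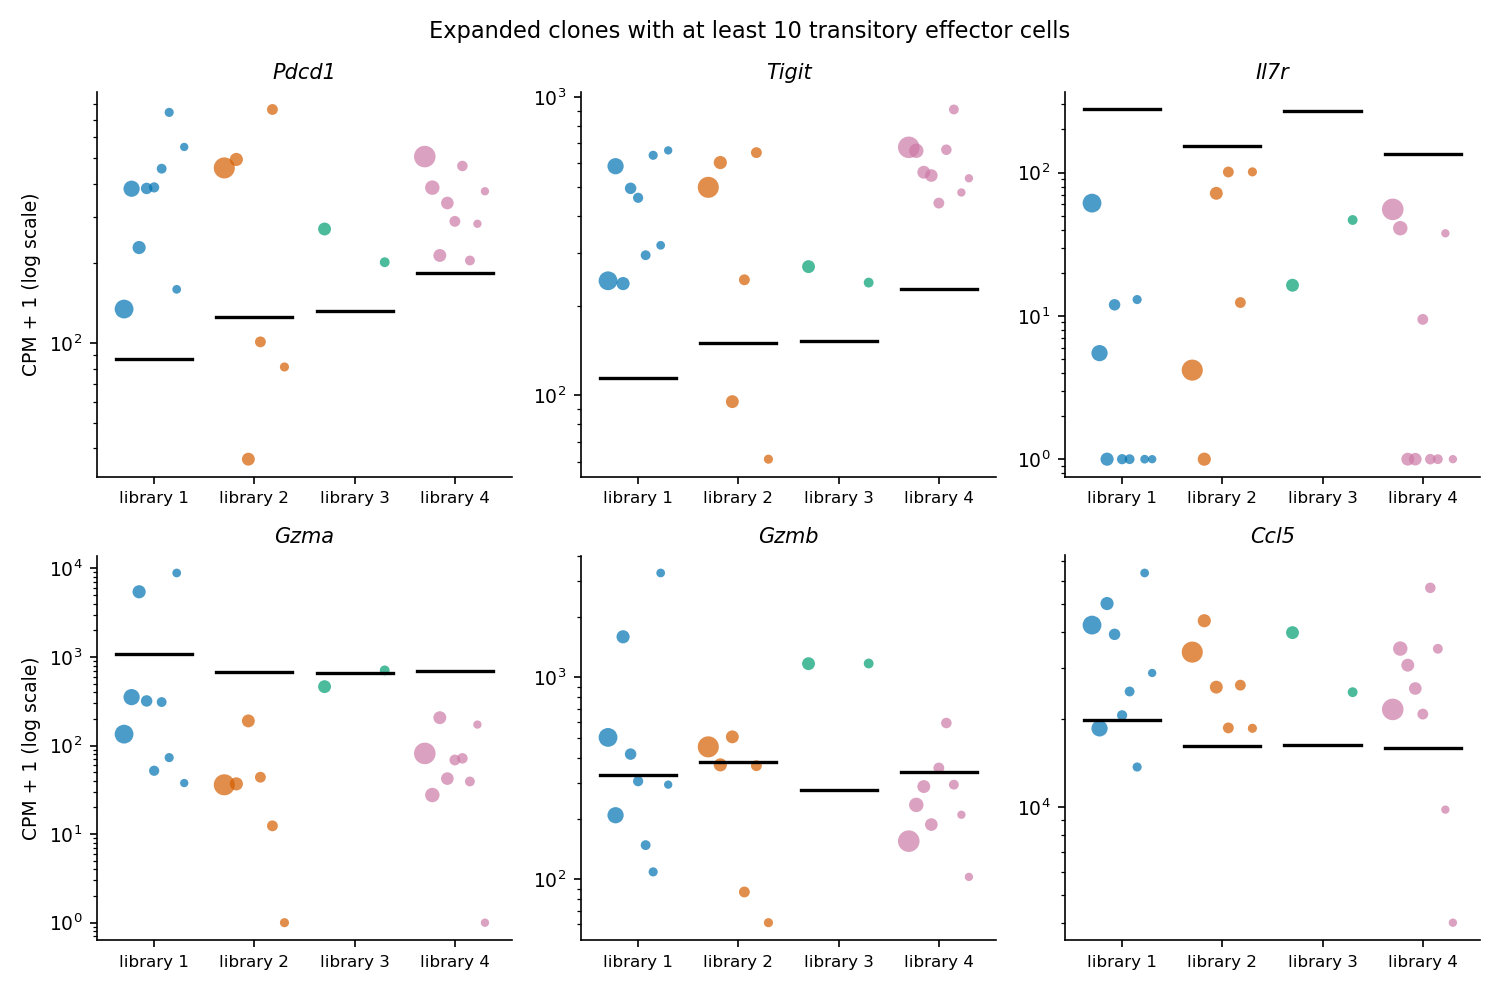
Level of 6 genes (y axes, CPM + 1 on a log scale) in each of the 26 expanded clones with at least 10 transitory effector cells, by library (x axis, clones ordered from most to fewest cells, point area in proportion to cells). Black bars mark the single arm of the library. All points for Il7r lie below the bars, those for Tigit lie above in 24 of 26 clones, and Gzma spans from 0 to 8867 CPM.

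The clone size effect was compared with that in cycling cells. In the 856 cycling cells of single and expanded clones, 258 genes rose in expanded clones and 347 fell of 8359 tested (3.09% and 4.15%). Tigit gave log2 1.40 ± 0.15 (SE) there, Pdcd1 1.63 ± 0.15 and Il7r -2.95 ± 0.28, and for none of them was the difference between clusters called (adjusted p = 0.991, 0.935 and 0.917). The difference itself, the log2 fold change in transitory effector minus that in cycling cells, was called for 12 genes, 11 more positive in transitory effector cells (0.132% of 8359) and 1 more negative (0.012%). With DESeq2, without library 1 and without library 4 the count was 0, with 130, 328 and 351 genes at an unadjusted p under 0.05 against 473 in the fit by edgeR.

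Tcf7 was 1 of the 12. It fell by 2.45 on the log2 scale with clone size in cycling cells and by 0.61 in transitory effector cells, a difference of 1.82 ± 0.33 (edgeR adjusted p = 0.0154). Its expanded level was 114, 102, 48.7 and 142 CPM in transitory effector cells of libraries 1 to 4 and 16.9, 33.3, 8.54 and 23.4 CPM in cycling cells, while the single levels were 185, 152, 175 and 152 and 106, 80.3, 142 and 94.8 CPM. Relative to single cells of the same cluster, expanded transitory effector cells had more Tcf7 RNA than expanded cycling cells. Tnfsf14, which encodes the ligand LIGHT, differed by 2.51 ± 0.42 (adjusted p = 0.00846), Samd3 by 1.62 ± 0.27 (0.00846), Tespa1, a TCR signalling adaptor, by 1.40 ± 0.25 (0.0154) and Klra3, a Ly49 receptor of NK cells with close paralogs that can share reads, by 2.09 ± 0.39 (0.0167). All 5 fell with clone size in cycling cells by at least 1.90 on the log2 scale. The only gene with a more negative value in transitory effector cells was Zeb2, which fell there (-0.82) and rose in cycling cells (1.01). The other 6 were Dusp1, Fos, Ltb, Aff3, Rflnb and Ccdc136, the last too low to be tested within transitory effector cells. Cycling cells come from the same libraries, and 76 of the 86 expanded clones have members in both clusters.

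**Figure D5:**
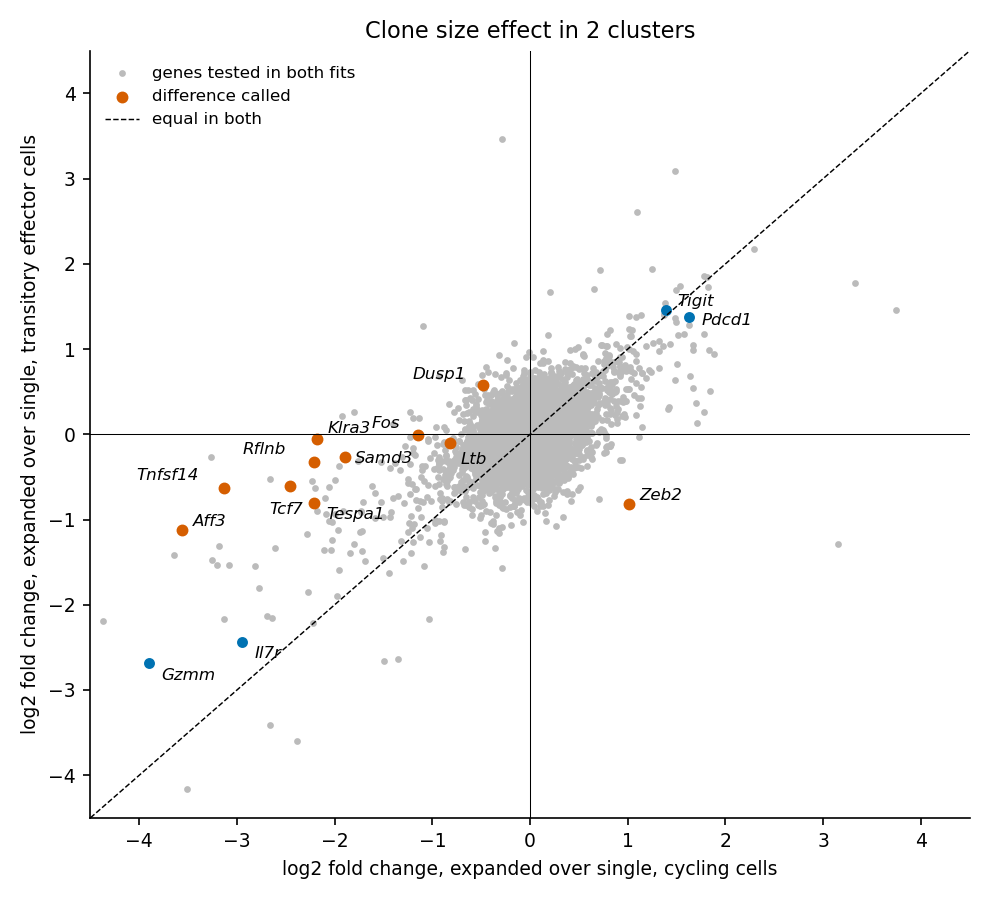
Log2 fold change of expanded over single clones in cycling cells (x axis) and in transitory effector cells (y axis), 1 point per gene tested in both fits, with 2 genes beyond the axes. Orange points are genes whose difference between clusters was called, 10 of 11 above the dashed line of equal change, with Zeb2 below it. Tigit and Pdcd1 lie near the line, and Il7r and Gzmm (blue) fell in both clusters.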

How the data were processed

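CD8+ T cells from BM were captured in 4 droplet libraries, with expression and TCR libraries of the same cells. The authors processed reads with Cell Ranger 7.00 against mm10, per the submitters' processing notes, equalized read depth across libraries, kept cells within limits of UMIs and mitochondrial RNA that expressed CD3 and CD8 genes, clustered them with Monocle3 and named the clusters. They deposited whole UMI counts per gene and cell, a cell table with the mitochondrial fraction of each cell, and 1 TCR call per cell. Each cell's UMI total in the deposited cell table equalled the sum of its counts in 11754 of 11754 cells. The libraries are numbered without treatments, so none was assigned.

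UMI counts were summed per library and clone size (1, 2 to 5, and 6 or more cells), giving 12 sums. edgeR 4.0.16 (R 4.3.3) fitted TMM-normalized quasi-likelihood models with library and size as terms after its default low-count filter, without 151 TCR segment genes, and p-values were adjusted by the Benjamini-Hochberg method over all genes tested. The library term is a replicate block, since both arms of a library come from the same pool of mice. A second model over 16 sums tested whether the size effect differed between transitory effector and cycling cells. Each SE was derived from the test, as the absolute log2 fold change over the square root of the quasi-likelihood F statistic. CPM are counts per 1000000 summed UMIs. Thinning drew 2500 UMIs per cell. Intervals are exact binomial or Clopper-Pearson and cover counting error only. Tested on simulated data with 7096 genes, the first model recovered 95% of 100 log2 changes of 1 and 99% of 100 of 2, with 17 false among 211 calls. For the difference between clusters (8519 genes) the shares were 35% and 94%. In both simulations only genes above a minimum mean count were changed, by the same amount in every library, and counts were drawn without clones. Recovery of genes with few counts, or with uneven clones, was not tested. Gene positions come from the GENCODE M21 annotation of GRCm38.

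The groups and gene lists were chosen with earlier results of these data known. Genes are named by rule: the 10 of largest rise and fall at 50 CPM or more in the higher arm with 1 direction in all libraries, up to 4 called and 2 uncalled genes per list, a fixed set of T cell genes, and the 5 of smallest p for the difference from cycling cells. Some results the rule covers are not reported here. Genes named outside the rule were chosen after their values were seen. Alternatives were DESeq2 1.42.0, no filter, no block, other clone definitions and size limits, fewer cells per clone, matching cluster numbers, thinning, leaving out each library, and, added after seeing the data, leaving out shared barcodes or shared clonotypes.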

Additional observations from a re-analysis of the deposited data

Results flagged for a closer look

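In 5 of the 82 named genes, the log2 ratio of expanded over single clones in 1 library stood far from the other 3 by Dixon's test. Chance flags about 1 in 20 groups in this test, so flags of this number can arise by chance. The lowest library was at -0.0599 for Nr4a2, at -0.21 for Klrd1, at -0.13 for Ier3 and at -0.0756 for Ifi27l2a, while the other libraries were higher. For Cd226 the highest library, library 3, was at 0.93.

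The size effect differed between transitory effector and cycling cells by the interaction test for the 5 genes of smallest p. The difference was 2.51 for Tnfsf14, 1.62 for Samd3, 1.40 for Tespa1, 1.82 for Tcf7 and 2.09 for Klra3 on the log2 scale. None of the 5 was called without library 1, without library 4 or with DESeq2. The cause was not tested.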

How the results depend on the processing

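Higher and lower calls moved from 169 and 179 to 66 and 65 with DESeq2, to 52 and 47 without the replicate block (library term), to 106 and 117 with at most 3 cells per clone, to 74 and 73 after thinning, and to 80 and 83 without shared clonotypes. Higher calls fell to 105 with matching Leiden numbers. Leaving out 1 library gave 54 (library 1) to 171 (library 2) higher and 55 (library 1) to 199 (library 2) lower calls, with 90 and 80 without library 4 and 113 lower without library 3. The 38 genes called between small and single clones became 78 without the filter, 1 without the block, 22 with 1 TRA and 1 TRB, 19 with matching Leiden numbers, 15 after thinning, and 4 (library 1) to 53 (library 2) with 1 library left out, with 19 without library 4. The 12 genes that differed from cycling cells became 0 with DESeq2 (130 at unadjusted p under 0.05), 39 without the filter, 0 without the block (249), 2 with 1 TRA and 1 TRB, 1 with at most 3 cells per clone, 1 after thinning, 5 without shared clonotypes, and 0 (libraries 1 and 4, with 328 and 351 at unadjusted p under 0.05) to 17 (library 3) with 1 library left out. The cause was not tested, although several settings leave fewer cells or samples. Of the 56 named genes called, 23 were called under every alternative, among them Tigit, Tox, Pdcd1, Lag3, Il7r, Gzmm, Ccl5 and Cd3e. The calls held under fewest alternatives were Mcm6 (4 of 19), Cxcr6 (9 of 19), Myc (10 of 19) and Dusp1 (11 of 19), with Fcer1g called under 11 of the 17 that tested it. The other alternatives left the counts within 1.5 times, and the block changed the counts as given.

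Log2 fold changes of expanded over single clones changed sign for genes that were near 0 or not called, and for Myc, as follows. With expanded clones from 11 cells, the value was -0.0126 for Klf2 and -0.013 for Klrd1. After thinning, the value was -0.0483 for Klf2, 0.0155 for Ltb, -0.023 for Klrd1, 0.000256 for Myc and -0.27 for Cd226. Without shared clonotypes, the value was -0.0492 for Klf2, 0.00894 for Id2, 0.00533 for Ltb, 0.00234 for Selplg, 0.15 for Ly6a, 0.0365 for Samd3 and 0.21 for Klra3. With matching Leiden numbers, the value was -0.0809 for Cd160, -0.0825 for Srgn, 0.095 for Selplg, -0.0775 for Klrd1, 0.00456 for Ly6a and 0.16 for Klra3. With clone size counted within the cluster, the value was 0.0177 for Id2, -0.00941 for Klrd1, 0.0794 for Ly6a and -0.13 for Havcr2. Without the block, the value was 0.0422 for Ly6a. With 1 TRA and 1 TRB only, the value was 0.095 for Gzma and 0.55 for Klra3. With at most 3 cells per clone, the value was 0.0851 for Gzma, 0.17 for Ikzf2, -0.16 for Cd226 and 0.65 for Klra3. Without the clone of each library with most cells in the cluster, the value was -0.021 for Cd226 and 0.28 for Klra3. With expanded clones from 2 cells, the value was 0.11 for Klra3. With TRB alone, the value was 0.26 for Klra3. With 1 library left out, values ranged from -0.0956 to 0.19 for Klf2 (sign changed without library 2 or 4), -0.25 to 0.052 for Id2 (sign changed without library 4), -0.0813 to 0.000856 for Selplg (sign changed without library 2), -0.19 to 0.12 for Ly6a (sign changed without library 4), -0.0393 to 0.74 for Igkc (sign changed without library 4), -0.63 to 0.13 for Ikzf2 (sign changed without library 2), -0.18 to 0.16 for Cd226 (sign changed without library 3) and -0.31 to 0.21 for Klra3 (sign changed without library 2 or 3). The smallest summed group tested, small clones of library 3, held 137984 UMIs, so levels of a few CPM rest on few UMIs. Each library is 1 pool of mice with its own treatment, so differences between libraries cannot be told apart from treatment.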
